A study of Homo sapiens with 74 samples.

Results

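Untreated HEL cells were compared with untreated K562 cells, the 2 human erythroleukaemia lines of a study of the DOT1L complex. Both are established lines of leukaemic blood precursors with red cell and platelet features. K562 came from a chronic myeloid leukaemia in blast crisis and carries the BCR-ABL1 fusion, and HEL carries an activating mutation of the kinase JAK2. The comparison took every sample of the 2 lines labelled as a control in the RNA-seq tables, which is 5 of the 74 samples of the series and of its 13 RNA-seq samples. The third K562 control column repeated the second in every gene, so 4 distinct libraries were compared, 2 of HEL and 2 of K562.

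HEL libraries carry the genotype label control, in an experiment whose other arm is a DOT1L knockdown, and the labels do not say whether the control cells carried a vector. K562 libraries carry the label wild type. HEL grew in RPMI-1640 with fetal bovine serum and β-mercaptoethanol, K562 in a DMEM-based medium with fetal bovine serum. HEL was tabulated as reads and K562 as fragments, in which a read pair counts once. Line, medium and counting therefore change together and cannot be told apart. Nothing in the labels says that the libraries of a line came from separate cultures, so the p-values measure only the spread between libraries, which may be technical.

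Red cells and platelets descend from a shared precursor that depends on GATA1. From there KLF1 drives globin, haem and membrane genes of the red cell, and FLI1, an ETS-family factor, drives the integrin and glycoprotein genes of the megakaryocyte, the platelet's parent cell. Leukaemic lines of this kind make the embryonic and fetal globins rather than the adult β-globin.

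Total counts were 12640870 and 12811688 in HEL and 21677910 and 21411338 in K562, with 15693 and 15686 genes detected against 16975 and 16977. Values below are normalised counts (CPM), each library brought to one common total and scaled by TMM, a factor that makes the bulk of genes comparable between libraries. Folds are given as log2, HEL minus K562, with the standard error (SE) and the adjusted p of edgeR's quasi-likelihood test. A count of 0 allows up to 3 counts, so a gene without counts could be present at up to 0.243 CPM in a HEL library or 0.136 CPM in a K562 library. This covers counting error only.

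Most genes differed between the lines. Of 14174 genes tested, 12656 passed an adjusted p of 0.05 (89.3%), 6194 higher in HEL (43.7%) and 6462 higher in K562 (45.6%). With a 2-fold minimum, a log2 fold of 1, there were 8180 (57.7%), of which 3905 were higher in HEL (27.6%) and 4275 in K562 (30.2%). At a log2 fold of at least 3, an 8-fold difference, 1620 genes were higher in HEL (11.4%) and 1700 in K562 (12%). The 2 HEL libraries lay outside the range of the 2 K562 libraries in 94.3% of genes, so separation of libraries or a small adjusted p was the ordinary case here, and sizes are given throughout. Replicates of a line correlated across genes at r = 0.995 in HEL and 0.996 in K562, on log2 CPM of single libraries. Mean levels per exonic length (RPKM) correlated between the lines at r = 0.663 (Spearman's rho 0.709, 14174 genes, on log2 values, genes not being independent replicates). The measures differ, and genes on more than 1 contig, described below, are included.

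Presence and absence made up part of this difference. A mean of at least 1 CPM in HEL with at most 3 counts in each K562 library was found for 758 genes, and the reverse for 966. At 10 CPM the numbers were 276 and 250. These numbers include genes listed on more than 1 contig, which are described below. The 338 tested genes of that kind had a median of 0.12 CPM in HEL and 3.29 in K562. The numbers for K562 may therefore be too high. The limit of 3 counts also stands for up to 0.243 CPM in a HEL library and 0.136 CPM in a K562 library. Both lines reached 10 CPM for 7704 genes.

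**Figure D1:**
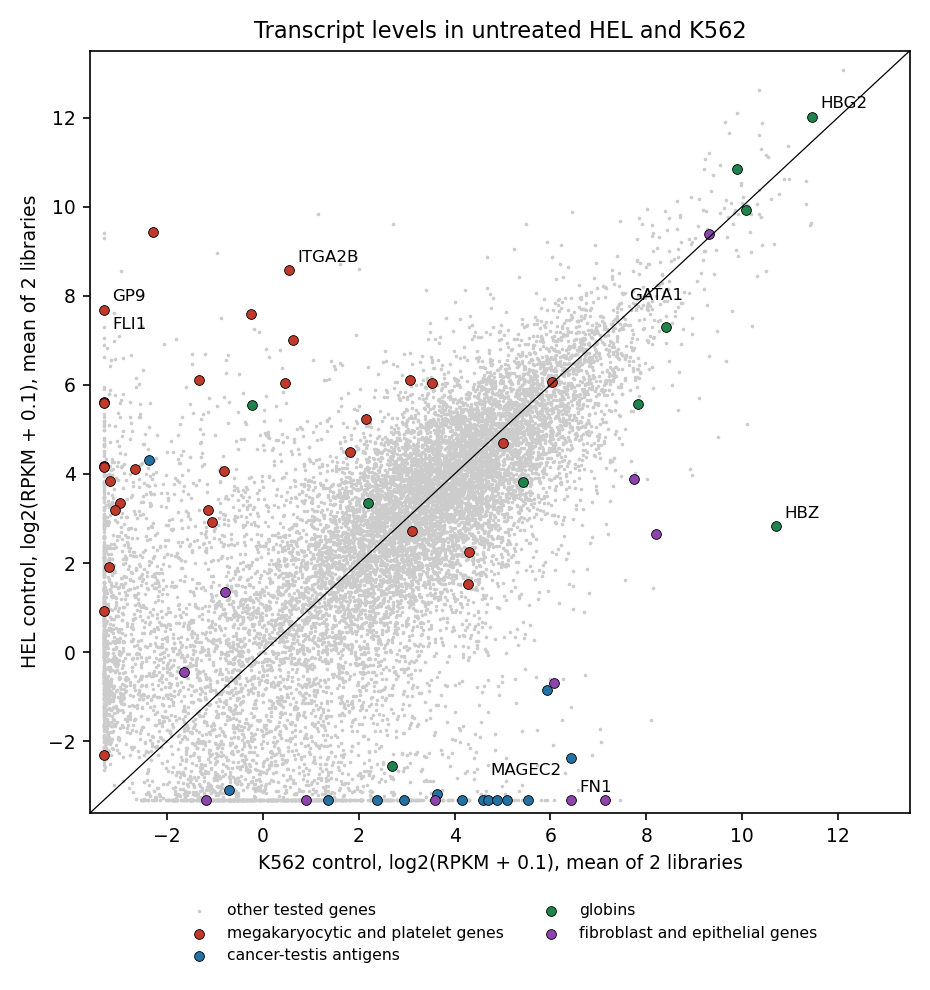
Mean level of each gene listed on a single contig in K562 (x axis) and HEL (y axis), both as log2(RPKM + 0.1), the mean of 2 libraries a line, with 4 gene lists in colour and the diagonal of equal level. Most platelet genes lie far above the diagonal, cancer-testis and several epithelial genes lie along the lower edge where HEL had no counts, and most globins lie high in both lines with HBZ far below the diagonal.

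Some genes cannot be compared. The tables list 338 of the tested genes on more than 1 contig, that is, on a chromosome and on alternative versions of the same stretch. Their median log2 fold was -5.06 and 281 of them were higher in K562 against 40 in HEL, while the 13836 genes on 1 contig had a median of -0.01, with 6154 higher in HEL and 6181 higher in K562. RPS9 and RPS18, ribosomal proteins that every cell needs, belong to this group and had no count in either HEL library against 335 and 284, and 337 and 303, counts in K562. Values of such genes, HLA genes and B2M among them, are uncertain, and the list counts that follow leave them out. Each list count is to be read beside the shares over all genes tested, 43.7% higher in HEL and 45.6% in K562. These shares include the 338 genes, and over the genes on 1 contig the share higher in K562 was 44.7%. Another 92 genes share over 50% of their exonic bases with a neighbour on the same strand and had a median of -0.79.

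Among genes with at most 3 counts in each K562 library, the 7 with the highest level per exonic length in HEL were FCER1A, H1F0, GP9, IL1B, CYTL1, ETS1 and FLI1. FCER1A, a chain of the high-affinity IgE receptor found on mast cells and basophils, had 718 and 743 CPM in the HEL libraries and no count in K562, so it was at least 5357-fold higher in HEL. H1F0, the linker histone H1.0 of cells leaving the cycle, had 885 and 879 CPM in HEL and 0.09 and 0.05 CPM (2 and 1 counts) in K562. IL1B, the cytokine interleukin-1β, had 285 and 300 CPM in HEL and a single count in K562, a ratio of 12867 with a 95% counting interval from 2325 to 511930. CYTL1, a small secreted protein first found in CD34+ cells, had 153 and 164 CPM in HEL and no count in K562, at least 1161-fold higher. The low K562 counts were set by the rule, and GP9, ETS1 and FLI1 are described with the platelet genes.

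The 7 counterparts of K562, with at most 3 counts in each HEL library, were GTSF1, TPTEP1, KRT19, BCYRN1, GDF15, MAGEA3 and FN1. FN1, fibronectin of the extracellular matrix, had 750 and 795 CPM in K562 and no count in HEL, at least 3171-fold higher in K562. KRT19, a keratin of simple epithelia, had 211 and 203 CPM against none, at least 852-fold higher, and GTSF1, a factor of the germline piRNA pathway, 139 and 143 CPM against none, at least 580-fold higher. TPTEP1, a pseudogene transcript of chromosome 22, had 203 and 222 CPM and was at least 872-fold higher. MAGEA3, a cancer-testis antigen with close paralogs, had 156 and 142 CPM against 0.24 and 0.08 CPM (3 and 1 counts). GDF15, a stress-induced secreted factor, had 145 and 136 CPM against 3 and 0 counts, a K562 to HEL ratio with a counting interval from 395.8 to 5613. BCYRN1, a short RNA made by polymerase III, had 37.0 and 15.6 CPM against 0 and 1 count. For BCYRN1 the K562 libraries differed more than 2-fold from each other.

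Among genes with a mean of at least 1 CPM in the lower line and 20 CPM in the higher, CA1, INPP5D, ITGA2B and ITGB3 had the largest log2 folds towards HEL. CA1, a red cell carbonic anhydrase, had 1356 and 1405 CPM in HEL and 3.18 and 3.23 in K562, a log2 fold of 8.75 (SE 0.08, adjusted p = 4.2e-28). INPP5D, the inositol phosphatase SHIP1 of blood cells, had 549 and 547 CPM against 1.30 and 1.41 (8.65, SE 0.09). SPINT2, a serine protease inhibitor, had 276 and 271 against 1.57 and 1.23 (7.60, SE 0.09), and TESPA1, a signalling adaptor known from thymocytes, 216 and 227 against 1.21 and 1.09 (7.58, SE 0.10). Replicates of a line lay close together in each case, relative to the gap between the lines.

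Towards K562 the largest fold under the same limits was that of HBZ, embryonic ζ-globin. CTTN, the actin-binding protein cortactin, had 215 and 203 CPM in K562 and 2.60 and 1.05 in HEL, a log2 fold of -6.84 (SE 0.13, adjusted p = 2.2e-23), or -7.62 without the first HEL library. MCAM, an adhesion molecule, had 130 and 129 CPM against 1.05 and 1.29 (-6.78, SE 0.12). SDF2L1, a chaperone cofactor of the endoplasmic reticulum, had 254 and 213 against 2.11 and 2.18 (-6.76, SE 0.12). CDC42EP1, an effector of the GTPase CDC42, had 114 and 109 against 1.87 and 0.65 (-6.47, SE 0.15), or -7.41 without the first HEL library and -5.88 without the second. FGFRL1, a decoy-type FGF receptor, had 93.1 and 102.97 against 1.05 and 1.61 (-6.19, SE 0.14), and PLXNA1, a semaphorin receptor, 343 and 351 against 4.38 and 5.81 (-6.09, SE 0.09). The limit of 1 CPM in the lower line kept genes silent in HEL out of this group.

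Globin genes were abundant in both lines but in different proportions. The 10 tested of 11 globin-list genes summed to 4614 and 4714 CPM in HEL and 4212 and 4612 CPM in K562, so the lower HEL library and the higher K562 library were level. HBZ had 4.71 and 3.55 CPM in HEL and 941 and 1038 in K562, a log2 fold of -7.90 (SE 0.10, adjusted p = 1.3e-26). HBE1, embryonic ε-globin, went the other way with 1487 and 1517 CPM in HEL and 757 and 794 in K562 (0.95, SE 0.05, adjusted p = 8.6e-15). HBG2, fetal γ-globin, was the highest globin in both lines per exonic length, at 4162 RPKM in HEL and 2833 in K562. Its counts were 2383 and 2470 CPM against 1584 and 1719 (0.56, SE 0.05). HBG1, its near-identical copy, had 567 and 567 CPM against 583 and 685 (-0.16, SE 0.06, adjusted p = 0.014), and this call was lost without either HEL library or without the second K562 library (adjusted p = 0.12, 0.14 and 0.20).

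Within the α-globin cluster, HBA1 had 95.4 and 85.1 CPM in HEL and 187 and 203 in K562 (-1.11, SE 0.06), and HBA2 28.1 and 26.4 against 126 and 135 (-2.26, SE 0.07). HBQ1, θ-globin, had 9.98 and 8.31 against 26.7 and 29.1 CPM (-1.61, SE 0.12). With HBZ, the 4 α-type genes tested were all higher in K562. HBB, adult β-globin, had 30.6 and 28.2 CPM in HEL and 0.40 and 0.55 in K562 (5.93, SE 0.19, adjusted p = 5.9e-19), a high fold at a level far under HBE1 and HBG2. AHSP, the chaperone of free α-globin, had 3.14 and 4.14 CPM in K562 and 1 and 0 counts in HEL. How reads were shared between HBG1 and HBG2, and between HBA1 and HBA2, is not given in the sources used here, so the split within each pair is uncertain.

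Of 11 haem synthesis genes, 7 were higher in HEL and 2 in K562, beside 43.7% and 45.6% of all genes tested, with a median log2 fold of 0.43. ALAS2, the erythroid form of the first enzyme, had 313 and 310 CPM in HEL and 50.6 and 56.5 in K562 (2.54, SE 0.06, adjusted p = 1.4e-21). CPOX, coproporphyrinogen oxidase, had 728 and 700 against 78.8 and 64.6 (3.32, SE 0.07). FECH, the enzyme that inserts the iron, was one of the 2 higher in K562, with 97.0 and 95.1 against 145 and 157 CPM (-0.65, SE 0.06). Among iron genes, 7 of 11 were higher in HEL and 4 in K562. SLC40A1, the iron exporter ferroportin, had 320 and 334 CPM in HEL and 59.0 and 56.9 in K562 (2.50, SE 0.06). FTH1, ferritin heavy chain, had 418 and 433 against 1572 and 1567 (-1.88, SE 0.05). TFRC, the transferrin receptor, had 1217 and 1216 against 2154 and 2302 CPM (-0.87, SE 0.05).

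Red cell membrane and blood group genes leaned to HEL: of the 26 tested on 1 contig, 18 were higher in HEL and 6 in K562, with a median of 1.12. EPB42, protein 4.2 of the membrane skeleton, had 252 and 252 CPM in HEL and 2.42 and 2.64 in K562 (6.63, SE 0.09, adjusted p = 3.5e-26). RHCE, of the Rh blood group, had 143 and 145 against 4.44 and 5.68 (4.83, SE 0.09), though RHD is a near-identical neighbour and had 108 and 113 against 6.68 and 7.96. SLC4A1, the anion exchanger band 3 of mature red cells, was the main exception, with 0.49 and 0.56 CPM in HEL and 32.1 and 31.7 in K562 (-5.90, SE 0.19, adjusted p = 1.3e-18). ADD2, β-adducin, was also lower in HEL, at 35.7 and 34.4 against 226 and 210 CPM (-2.64, SE 0.06). ANK1 and RHAG, ankyrin and the Rh-associated glycoprotein, had log2 folds of 0.17 and -0.03, and the direction of each turned when a trend with exonic length was removed, to -0.04 and 0.17.

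Of 20 erythroid regulators, 8 were higher in HEL and 11 in K562, beside 43.7% and 45.6% of all genes tested. Their median was -0.33, and 4 and 6 of them were at least 2-fold apart, beside 27.6% and 30.2% of all genes. GATA1 and KLF1 were close in level. GATA1 had 311 and 308 CPM in HEL and 270 and 256 in K562 (0.23, SE 0.05, adjusted p = 0.00016), and KLF1 155 and 152 against 193 and 183 (-0.29, SE 0.05, adjusted p = 1.8e-05). TAL1, a partner of GATA1, was higher in HEL at 546 and 554 against 111 and 114 CPM (2.29, SE 0.05). TCF3, which pairs with TAL1, was lower, at 84.5 and 83.7 against 452 and 447 (-2.42, SE 0.05). The fetal globin repressors were split as well: BCL11A had 4.79 and 4.43 CPM in HEL and no count in K562, at least 33.8-fold higher, whereas SOX6 had 0.41 and 0.16 CPM in HEL and 28.9 and 31.1 in K562 (-6.69, SE 0.23) and ZBTB7A 21.3 and 20.8 against 110 and 105 (-2.35, SE 0.07). Without the first HEL library the fold of SOX6, with 5 and 2 counts in HEL, was -7.48.

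**Figure D2:**
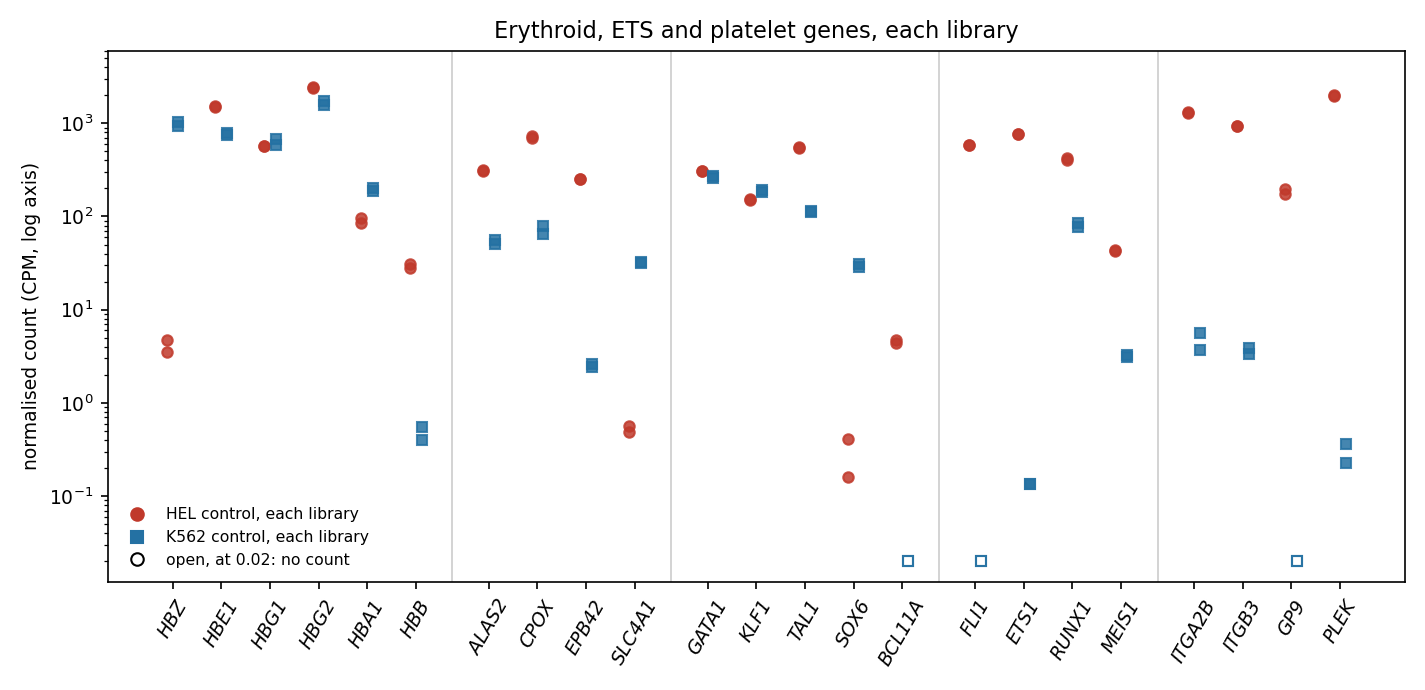
Normalised count (CPM, logarithmic axis) of erythroid, ETS-family and platelet genes in each HEL library (circles) and each K562 library (squares), with open symbols at 0.02 for libraries without a count. HBZ, SLC4A1 and SOX6 were higher in K562, and GATA1 and KLF1 were close. FLI1, ETS1, GP9 and PLEK were high in HEL and at or near 0 in K562. ITGA2B and ITGB3 were high in HEL and counted at a low level in K562.

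Megakaryocyte and platelet genes showed the widest separation among the blood lineage lists. Of 36 listed, 30 were tested, and 25 of them were higher in HEL and 4 in K562, against 43.7% and 45.6% of all genes. Their median log2 fold was 7.41, or 6.08 with the 7 genes without a K562 count set at their lower bound, beside -0.05 for all genes tested, and their summed level was 7535 and 7495 CPM in HEL and 677 and 685 in K562. The sequences that follow are the 250 bases before the RefSeq start of 4 of these genes, shown because the genes move together and because GATA and ETS factors are the textbook regulators of the list (RefSeq, GRCh38.p14, each on the strand of its gene, 5′ to 3′). Capitals mark GATA or its reverse complement TATC, and GGAAGT or its reverse complement ACTTCC, an ETS-type core. The stretches are chr17:44389650-44389899 (minus strand) for ITGA2B, chr3:129060529-129060778 (plus) for GP9, chr1:169630125-169630374 (minus) for SELP and chr4:73988191-73988440 (minus) for PPBP. The deposited tables place some starts elsewhere, so that the last 12 bases of the GP9 stretch and the last 15 of the SELP stretch lie inside the gene as tabled, and the ITGA2B stretch ends 48 bases before it.
ITGA2B: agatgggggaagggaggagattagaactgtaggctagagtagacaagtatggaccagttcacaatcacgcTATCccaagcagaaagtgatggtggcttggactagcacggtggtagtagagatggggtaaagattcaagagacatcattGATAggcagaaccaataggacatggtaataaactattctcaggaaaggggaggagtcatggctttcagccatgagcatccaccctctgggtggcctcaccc
GP9: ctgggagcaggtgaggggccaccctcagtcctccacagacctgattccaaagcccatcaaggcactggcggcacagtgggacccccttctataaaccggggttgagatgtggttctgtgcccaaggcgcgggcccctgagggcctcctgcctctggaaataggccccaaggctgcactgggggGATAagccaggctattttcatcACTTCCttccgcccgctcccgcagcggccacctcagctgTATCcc
SELP: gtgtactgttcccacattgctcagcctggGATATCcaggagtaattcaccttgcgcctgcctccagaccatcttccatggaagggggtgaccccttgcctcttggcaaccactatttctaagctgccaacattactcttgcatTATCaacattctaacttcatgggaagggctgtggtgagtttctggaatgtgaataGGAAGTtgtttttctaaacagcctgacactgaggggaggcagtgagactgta
PPBP: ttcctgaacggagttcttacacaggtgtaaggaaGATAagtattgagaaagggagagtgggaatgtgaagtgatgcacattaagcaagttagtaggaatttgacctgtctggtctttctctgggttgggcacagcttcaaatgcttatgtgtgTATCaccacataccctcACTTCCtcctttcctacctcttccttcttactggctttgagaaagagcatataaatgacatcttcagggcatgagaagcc

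All 4 stretches hold the GATA letters, 3 times in SELP, where 2 of the matches overlap in the palindrome GATATC, and 2 times in each of the others. One of the 2 in GP9 lies in those last 12 bases. GP9, SELP and PPBP hold the GGAAGT letters once, and ITGA2B does not have them in this window. Promoters of 27 of the 36 listed genes could be matched, and GATA stood in 15 of them (55.6%) and GGAAGT in 13 (48.1%). Among the 19 of these that were at least 2-fold higher in HEL, GATA stood in 10 (52.6%) and GGAAGT in 8 (42.1%), so the shares were no higher in the members that moved towards HEL. Among all 18452 promoters of the same length the shares were 41.8% and 20.9%, and among the 10985 of tested genes 35.3% and 23.9%. The 4 stretches shown are examples not picked by a fixed rule, and they hold these letters more often than the list as a whole. A match is a run of letters and not a measured binding site.

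ITGA2B and ITGB3 encode the 2 chains of the platelet fibrinogen receptor. ITGA2B (chromosome 17, 44372181 to 44389601, GRCh38) had 1327 and 1291 CPM in HEL and 3.72 and 5.64 in K562 (8.13, SE 0.09, adjusted p = 5.2e-27). ITGB3 (chromosome 17, 47253842 to 47312711) had 935 and 941 CPM against 3.32 and 3.91 (8.02, SE 0.08, adjusted p = 6.6e-28). Among chains of the von Willebrand factor receptor, GP9 (chromosome 3, 129060767 to 129062411) had 195 and 174 CPM in HEL, and GP1BA 43.1 and 48.4 CPM. Neither had a count in K562, and they were at least 1352-fold and 335-fold higher in HEL. GP5, another chain, had a log2 fold of 8.49, or 9.37 without the second K562 library.

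SELP, P-selectin of the α-granule membrane, had 150 and 157 CPM in HEL and no count in K562 (at least 1125-fold higher). The chemokines PF4 and PPBP reached 19.1 and 18.6 CPM and 11.7 and 11.9 CPM in HEL, with 0 counts and 1 count in K562. PLEK, pleckstrin, the protein kinase C substrate of platelets, was the most abundant member at 1957 and 2005 CPM against 0.36 and 0.23 (12.69, SE 0.11, adjusted p = 2.2e-28). CD36, a scavenger receptor, had 379 and 375 CPM against 1.61 and 1.59 (7.87, SE 0.09). TUBB1, the β-tubulin of the platelet ring, was measured in both lines, at 134 and 128 against 15.3 and 15.1 CPM (3.10, SE 0.07). F2RL3, a thrombin receptor, was higher in K562, at 17.1 and 15.4 CPM in HEL against 71.3 and 65.6 (-2.07, SE 0.08). TBXA2R, the thromboxane receptor, was also higher in K562, at 7.38 and 7.02 against 51.6 and 48.5 (-2.80, SE 0.10).

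FLI1 and ETS1 are neighbours on chromosome 11 and both ETS factors. FLI1 (128686535 to 128813267) had 586 and 582 CPM in HEL and no count in K562, at least 4284-fold higher in HEL. ETS1 (128458761 to 128587558) had 761 and 770 CPM against 0.13 and 0.14 (3 counts in each library), a ratio of 5653 with a counting interval from 2597 to 15407. Of 23 tested megakaryocytic and stem cell regulators, FLI1 and ETS1 included, 14 were higher in HEL and 7 in K562. The shares over all genes were 43.7% and 45.6%, and the median of the list was 0.52. RUNX1, needed for platelet production, had 420 and 402 against 76.2 and 84.6 CPM (2.35, SE 0.06). MEIS1 had 42.8 and 43.8 against 3.23 and 3.09 (3.77, SE 0.12). GATA2 was close, at 704 and 707 against 523 and 464 CPM (0.52, SE 0.05), and ID1, an inhibitor of E proteins, was lower in HEL at 25.2 and 25.3 against 202 and 196 (-2.98, SE 0.06).

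Receptors of early progenitors were higher in HEL in 9 of 10 tested genes, with a median of 5.50. KIT, the stem cell factor receptor, had 461 and 474 CPM in HEL and 14.8 and 15.8 in K562 (4.93, SE 0.06, adjusted p = 5.1e-26). CD34, the progenitor surface marker, had 11.6 and 11.8 CPM against no count, at least 85.7-fold higher. CSF2RB, the shared chain of the receptors for interleukin-3, interleukin-5 and GM-CSF, had 294 and 278 CPM against 2 and 0 counts. Of 22 granulocyte and monocyte genes, 9 were tested and 8 of these were higher in HEL, and the list summed to 367 and 385 CPM in HEL and 91.3 and 89.97 in K562. LYZ, lysozyme, had 44.8 and 51.4 CPM against 34.1 and 31.4 (0.55, SE 0.08). MPO, the defining enzyme of the granulocyte series, had 0 counts in HEL and 11 and 10 in K562, and the monocyte marker CD14 had 1 count in each HEL library. Among the 8 higher in HEL, FCER1G, an Fc receptor chain, had 34.7 and 38.6 against 0.04 and 0.23 CPM. PRG2, an eosinophil granule protein, had 141 and 146 against 8.83 and 9.18. Other eosinophil genes of the list are not reported here.

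Single lymphoid genes were on in each line. CD4 had 171 and 167 CPM in HEL and 0.13 and 0.18 in K562. CD3D and CD3G, neighbouring genes of the T cell receptor complex, had 50.9 and 49.1 CPM and 24.4 and 26.3 CPM in K562 and no count in HEL, at least 205-fold and 104-fold higher in K562, while CD3E of the same complex had 8 and 6 counts there and MS4A1, the B cell marker CD20, no count anywhere. Of 11 lymphoid genes tested, 6 were higher in HEL and 4 in K562, beside 43.7% and 45.6% of all genes.

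Fibroblast and epithelial genes leaned to K562, 8 of 11 tested against 2 in HEL, with a median of -7.01, or -5.43 with the 5 genes without a HEL count at their bound. EPCAM, an epithelial adhesion molecule, had 116 and 116 CPM in K562 and 1.22 and 0.56 in HEL (-7.01, SE 0.14, adjusted p = 5.8e-23), or -7.66 without the first HEL library. KRT8 and KRT18, the keratin pair of simple epithelia, had 659 and 667 against 13.3 and 14.5 CPM (-5.57, SE 0.07) and 343 and 320.5 against 21.99 and 22.98 (-3.88, SE 0.07). COL1A2, a collagen I chain, had 66.9 and 63.1 CPM in K562 and no count in HEL, at least 267-fold higher, whereas VIM, vimentin, had 1463 and 1471 CPM in HEL and 1377 and 1421 in K562 (0.07, SE 0.05, adjusted p = 0.18). VIM passed the threshold when the trend with exonic length was removed (0.27, adjusted p = 8.0e-05).

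The kinase systems named by the lines' driver lesions differed in level too. JAK2 had 940.0 and 948 CPM in HEL and 60.6 and 64.9 in K562 (3.91, SE 0.06, adjusted p = 3.0e-25). JAK1 was also higher in HEL at 520 and 523 against 65.0 and 74.8 CPM (2.90, SE 0.06), and JAK3 at 110 and 107 against 0.63 and 0.36 (7.75, SE 0.13), while TYK2 had 156 and 153 against 161 and 150 (adjusted p = 0.92, or 0.020 at -0.14 with the length trend removed). Among feedback inhibitors of this pathway, SOCS3 was higher in HEL (214 and 207 against 59.6 and 56.4 CPM, 1.86, SE 0.06), and SOCS1 (2.92 and 2.50 against 33.6 and 26.5, -3.47, SE 0.17), SOCS2 (42.9 and 42.1 against 160 and 158, -1.90, SE 0.06) and CISH (95.4 and 92.9 against 179 and 185, -0.95, SE 0.05) were higher in K562. Of 20 genes of the pathway, 14 were higher in HEL and 5 in K562, beside 43.7% and 45.6% of all genes, with a median of 0.96.

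Genes around BCR on chromosome 22 and ABL1 on chromosome 9 were higher in K562 in 13 of 15 tested on 1 contig, with a median of -2.38. BCR had 395 and 377 CPM in K562 and 55.1 and 54.3 in HEL (-2.82, SE 0.06, adjusted p = 1.4e-22), and ABL1 591 and 623 against 64.6 and 66.4 (-3.21, SE 0.06). Counts of the 2 genes do not separate the fusion transcript from the normal ones. NUP214, a nuclear pore gene beside ABL1, had 766 and 840 against 55.7 and 58.1 CPM (-3.82, SE 0.06), and EXOSC2, an exosome subunit on the other side of ABL1, only 59.8 and 63.5 against 40.4 and 42.5 (-0.57, SE 0.07). Beside BCR, UBE2L3 (-3.53, SE 0.06), TOP3B (-3.52, SE 0.07) and CRKL (-2.31, SE 0.05) were higher in K562.

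The short arm of chromosome 9 went the opposite way: all 11 tested genes of 23 listed from 9p21 and 9p24 were higher in HEL, with a median of 3.31. Next to JAK2 stand RCL1 (562.4 and 574 against 64.7 and 64.2 CPM, 3.14, SE 0.05), AK3 (574 and 566 against 55.5 and 61.6, 3.28, SE 0.06) and CD274, which encodes PD-L1 (75.5 and 72.1 against 0.45 and 0.36, 7.48, SE 0.15). SMARCA2, a SWI/SNF helicase, had 363 and 372 against 35.5 and 31.5 CPM (3.46, SE 0.06). MLLT3, which encodes the DOT1L complex member AF9, had 585 and 607 CPM in HEL and 2 and 1 counts in K562. CDKN2A, CDKN2B, MTAP, KLHL9 and HACD4 had no count in any of the 4 libraries. FOCAD, between them and MLLT3, had 42.1 and 42.7 against 2.06 and 2.09 CPM (4.35, SE 0.13).

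**Figure D3:**
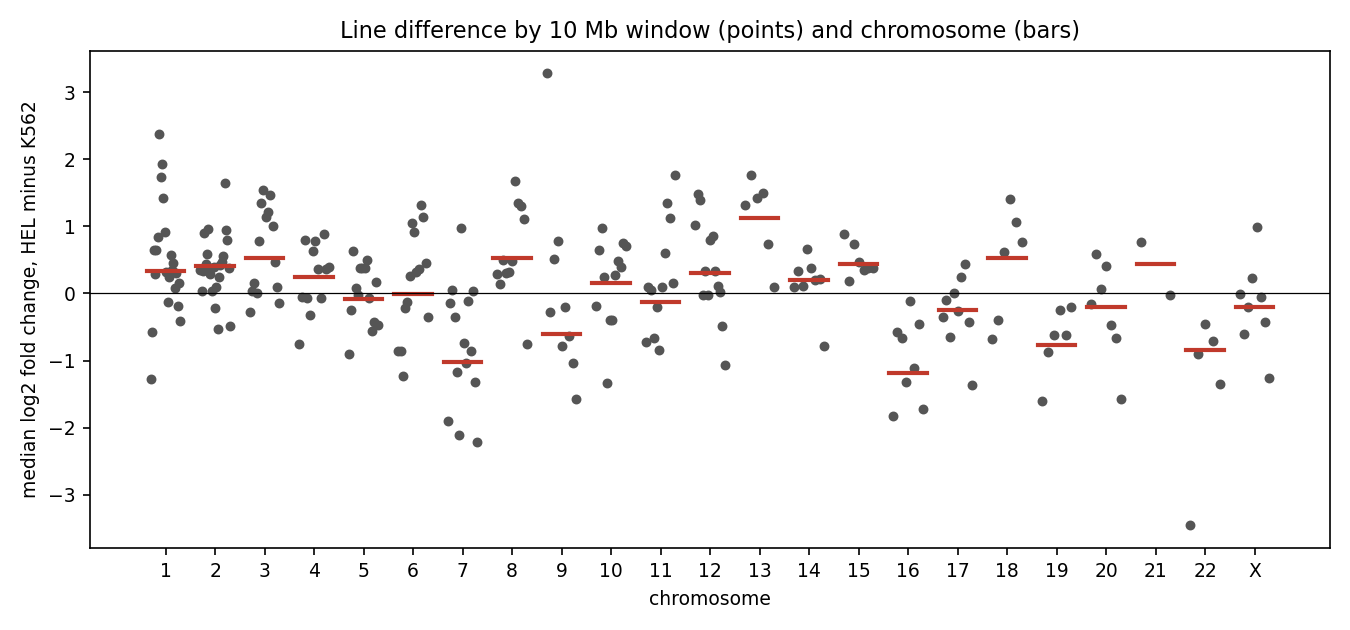
Median log2 fold change, HEL minus K562, of the genes in each 10 Mb window with at least 20 tested genes on 1 contig (points, in order along the chromosome) and of each chromosome (bars). The first window of chromosome 9 stands at 3.28 and that of chromosome 22 at -3.46, and the bars run from -1.19 (chromosome 16) to 1.13 (chromosome 13).

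Neighbouring genes more widely shared a direction. In 53 of 242 windows of 10 Mb the median was at least 1 in size, while 59 had a median within 0.25 of 0. The lowest median was on chromosome 22 from 10 to 20 Mb, -3.46 over 37 genes of which 33 were higher in K562, and the next lowest were on chromosome 7 at 150 to 160 Mb (-2.22, 42 of 48 genes), at 70 to 80 Mb (-2.11, 50 of 59) and at 0 to 10 Mb (-1.91, 64 of 74). On chromosome 16 from 0 to 10 Mb, where the α-globin cluster lies, the median was -1.83 and 142 of 164 genes were higher in K562. Towards HEL the highest were chromosome 9 from 0 to 10 Mb (3.28, 25 of 31 genes), chromosome 1 from 60 to 70 Mb (2.38, 28 of 34) and from 80 to 90 Mb (1.93, 37 of 38), and chromosome 11 from 120 to 130 Mb, which holds FLI1 and ETS1 (1.77, 41 of 48). Whole chromosomes ran from -1.19 for chromosome 16 (458 of 622 genes higher in K562) and -1.02 for chromosome 7 (472 of 701) to 1.13 for chromosome 13 (179 of 250 higher in HEL). All of these windows had medians of the same sign in the DOT1L-depleted libraries, for example -3.35 and 3.34 on chromosomes 22 and 9. Both lines are aneuploid by background knowledge, but gene copy number was not measured in these files and its part in the medians was not tested.

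Interferon-stimulated genes on 1 contig were higher in HEL in 20 of 25 tested and in K562 in 2, with a median of 3.61. The summed level of all 30 listed genes was much closer, at 841 and 840 CPM in HEL and 778 and 790 in K562. Per exonic length the sum was higher in K562, at 1002 RPKM against 644 in HEL. IFI44 had 43.0 and 43.0 CPM in HEL and no count in K562, at least 315-fold higher, and MX2, an antiviral GTPase, 55.2 and 54.8 CPM against 0.09 and 0.14. The 2 genes higher in K562 were BST2, tetherin (3.08 and 4.19 against 117 and 103.2 CPM, -4.92, SE 0.12), and IFITM1 (71.8 and 70.8 against 441 and 464, -2.67, SE 0.06). Antigen presentation had 6 tested genes on 1 contig, all 6 higher in HEL. NLRC5, which activates class I genes, had 142 and 135 CPM against 1 and 3 counts, and CIITA, which activates class II genes, 5.44 and 5.48 CPM against no count, at least 40.0-fold higher.

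Of 30 HOX and cofactor genes on 1 contig, 14 were higher in HEL and 12 in K562, with a median of -0.07. The shares over all genes tested were 43.7% and 45.6%. HOXA10, HOXA11 and HOXA13 had 30.5 and 29.9, 11.5 and 12.4, and 4.63 and 5.00 CPM in HEL and no count in K562, at least 222-fold, 87.8-fold and 35.3-fold higher. HOXD13 had 17.5 and 21.05 CPM in HEL and a single count in K562. HOXB8 was higher in K562 (0.89 and 0.73 against 19.99 and 20.2 CPM, -4.62, SE 0.20), and HOXB9 modestly so (129 and 125 against 216 and 215, -0.76, SE 0.05).

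DOT1L itself, the methyltransferase of lysine 79 on histone H3 that the study is about, had 99.0 and 88.8 CPM in HEL and 260 and 246 in K562 (-1.43, SE 0.06, adjusted p = 9.5e-17). MLLT1, which encodes the reader ENL, had 94.5 and 86.0 against 206 and 210 CPM (-1.21, SE 0.06), in contrast to its paralog MLLT3 given above. Both encode YEATS-domain readers, and of the pair K562 had counts nearly only for MLLT1. MLLT10, encoding AF10, had 166 and 167 against 74.9 and 78.0 (1.12, SE 0.05), and YEATS2, a histone reader of another complex, 416 and 433 against 70.6 and 72.9 (2.56, SE 0.05). Of 23 genes of the complex, its readers and elongation factors on 1 contig, 12 were higher in HEL and 8 in K562, with a median of 0.14. The shares over all genes tested were 43.7% and 45.6%.

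Cancer-testis antigens, germline genes switched on in tumours, were higher in K562 in 13 of 14 tested genes on 1 contig, with a median fitted log2 fold of -10.57. It came to -7.19 when the 9 genes without a count in HEL were set at their bound. MAGEC2 had 69.8 and 65.8 CPM in K562, GAGE1 54.0 and 57.3, SSX1 41.1 and 40.0 and MAGEB2 37.8 and 39.3, all with no count in HEL and at least 279-fold, 229-fold, 167-fold and 158-fold higher in K562. GAGE and SSX genes have near-identical copies, so single members are uncertain. MAGEA1 was the exception, with 35.7 and 32.0 CPM in HEL and 0.18 and 0.14 in K562 (7.68, SE 0.22, adjusted p = 7.9e-20).

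**Figure D4:**
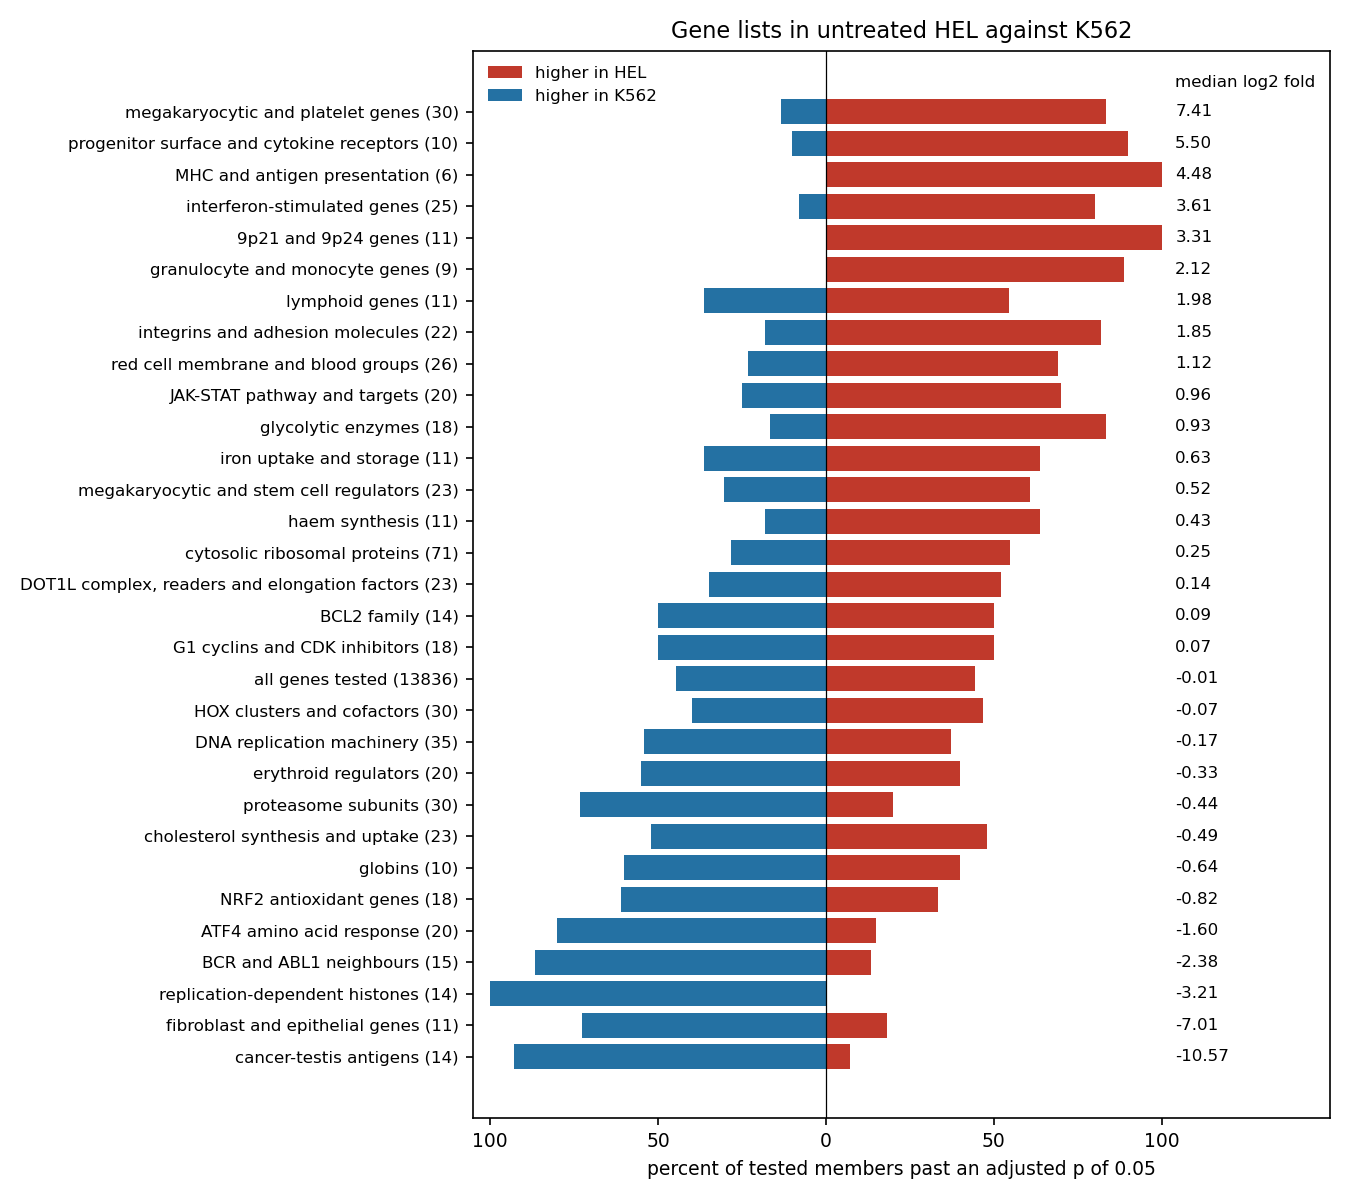
For each gene list shown, the percent of its tested members on 1 contig (number in brackets) that passed an adjusted p of 0.05 and were higher in HEL (right) or in K562 (left), with the median log2 fold at the right and all tested genes as a row for reference. Platelet, progenitor receptor and 9p genes lie mostly to the right, and cancer-testis, epithelial, BCR and ABL1 neighbour and histone genes mostly to the left.

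Targets of ATF4, the factor of the amino acid response, were higher in K562 in 16 of 20 and in HEL in 3, with a median of -1.60. TRIB3, a feedback inhibitor of that response, had 131 and 145 CPM in K562 and 20.4 and 20.3 in HEL (-2.76, SE 0.08), and STC2, a secreted stanniocalcin, 26.3 and 21.2 CPM against no count, at least 97.6-fold higher. Of 18 NRF2 antioxidant genes 11 were higher in K562 and 6 in HEL. NQO1, a quinone reductase, had 116 and 116 CPM in K562 and 3.16 and 3.31 in HEL (-5.16, SE 0.10), AKR1C1, an aldo-keto reductase with close paralogs, 190 and 200 against 3.25 and 3.14 (-5.93, SE 0.10), and ME1, malic enzyme, 67.8 and 69.6 against no count (at least 282-fold higher). GCLC, of glutathione synthesis, and HMOX1, haem oxygenase, went the other way, with 94.6 and 93.0 against 14.6 and 13.8 CPM (2.72, SE 0.07) and with 3.81 and 4.11 CPM against no count (at least 29.1-fold higher in HEL).

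Glycolytic enzymes were higher in HEL in 15 of 18 on 1 contig and in K562 in 3, with a median of 0.93. ENO1 and GAPDH, among the most abundant messages, had 6205 and 6175 against 2354 and 2336 CPM (1.40, SE 0.05) and 5593 and 5516 against 2271 and 2402 (1.25, SE 0.05). Cholesterol genes were split, 11 higher in HEL and 12 in K562. DHCR7 of late synthesis had 441 and 427 CPM in K562 and 116 and 113 in HEL (-1.92, SE 0.05), and HMGCS1 of early synthesis 464 and 472 in HEL against 196 and 191 in K562 (1.27, SE 0.05).

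Adhesion molecules were higher in HEL in 18 of 22 tested genes, beside 43.7% of all genes, with a median of 1.85. ITGA4, the α4 integrin chain, had 1068 and 1058 CPM in HEL and 29.1 and 28.2 in K562 (5.21, SE 0.06, adjusted p = 6.8e-27), and CD47, which restrains phagocytosis, 299.6 and 314 against 39.8 and 36.5 (3.01, SE 0.06). Proteasome subunits on 1 contig were higher in K562 in 22 of 30, beside 45.6% of all genes, with a median of -0.44. Replication factors were so in 19 of 35, with a median of -0.17. Ribosomal proteins were higher in HEL in 39 of 71, beside 43.7% of all genes, with a median of 0.25. Single ribosomal genes ranged widely all the same, from RPS6 at 2.28 to RPS15 at -2.14, and many have processed copies elsewhere in the genome, so that their counts are uncertain. Of 14 BCL2 family genes 7 were higher in each line, and of 18 G1 cyclins and CDK inhibitors on 1 contig 9 in each. All 14 tested replication-dependent histone genes were higher in K562, with a median of -3.21. Their messages normally lack the poly(A) tail by which these libraries were captured.

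Whether a line difference persisted in other cells of the same lines was read from the DOT1L knockdown libraries of HEL (2) and the DOT1L knockout libraries of K562 (3). These are separate libraries, counted in the same 2 tables, so counting goes with the line here as well. Of 15045 genes tested, 13194 passed the threshold (87.7%), 6210 higher in HEL (41.3%) and 6984 in K562 (46.4%). Across 14023 genes tested in both, the 2 line differences correlated at r = 0.942 (rho 0.931). Of 8039 genes that were at least 2-fold apart in the control libraries, 7641 (95.05%) were called in the same direction in the depleted ones, 288 were not called and 110 (1.37%) were called in the opposite direction.

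**Figure D5:**
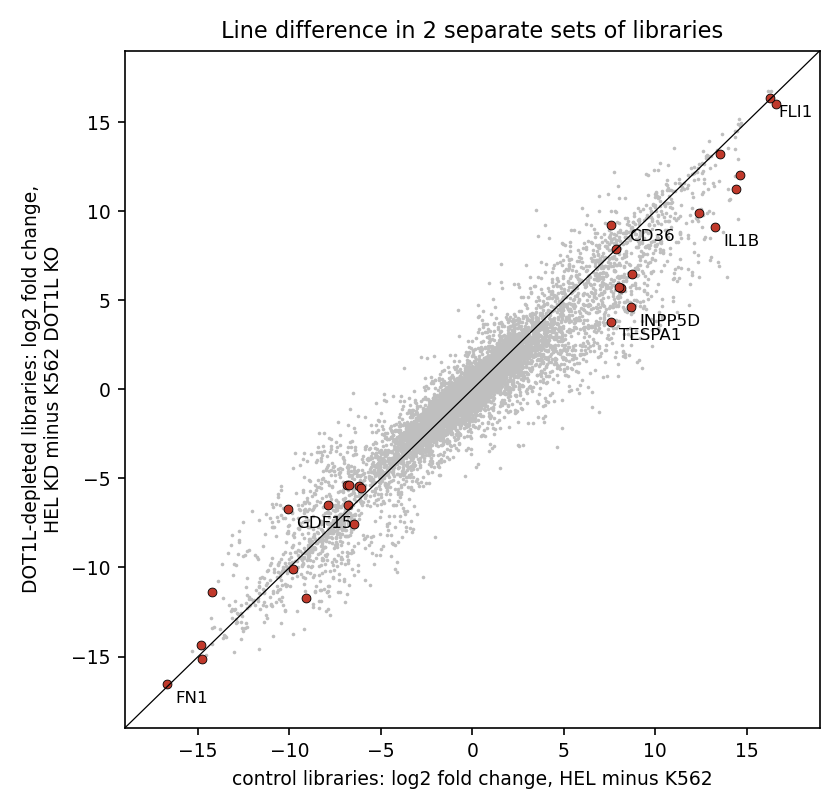
Log2 fold change between the lines in the control libraries (x axis) and in the DOT1L-depleted libraries (y axis), one point a gene, with the genes named by the fixed rule in red and the line of equal difference. Points follow the line (r = 0.942), with INPP5D, TESPA1 and IL1B below it, and fitted values of genes without counts in a line depend on the prior count.

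PRG2, major basic protein of eosinophils, was among the 110 that turned, from 3.99 in the controls to -1.48 in the depleted libraries. It was picked from the lists after its values were seen.

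Exonic length went with the line difference weakly. The rank correlation of length with the log2 fold was 0.074, and the median fold rose from -0.24 in the shortest of 5 length bins to 0.16 in the longest. Between replicates of a line the same correlation was 0.011 in HEL and -0.127 in K562. A rank correlation takes no account of size. The median absolute log2 difference was 0.099 between the K562 replicates and 1.24 between the lines. These correlations therefore do not measure the length trend of the lines against the spread of replicates.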

How the data were processed

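Polyadenylated RNA was sequenced from strand-specific dUTP libraries, per the labels' protocols. The authors deposited whole-number count tables per gene, read counts for HEL and fragment counts for K562, per the file headers, each listing 28131 genes. The submitters' processing notes name fastp 0.13.1, HISAT2 2.1.0, Bowtie2 2.3.4.1, featureCounts 1.6.1 and deepTools, and the builds hg38 and hg19, without roles. Gene positions are as the tables give them (GRCh38), and the use of strand and of multiply mapped reads in counting is not given in the sources used here.

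The tables were joined by gene symbol. K562 control column 3 equalled column 2 in every gene and was left out. Genes were kept with filterByExpr (minimum count 10, minimum total 15), scaled by TMM and tested with edgeR 4.0.16 (glmQLFit, glmQLFTest, R 4.3.3), with Benjamini-Hochberg adjustment over all genes tested. Only the 4 control libraries entered the fit, the depleted libraries had their own, and the difference between them was an interaction term over all 9. SE was derived from F. Ratios over 1 to 3 counts carry an exact 95% counting interval. The pipeline was tested on simulated data. Windows were 10 Mb with at least 20 genes.

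Genes named by rule passed the threshold with libraries of the lines apart. They were, per line, the 7 with the highest level per exonic length among genes with at most 3 counts in each library of the other line, and the 7 with the largest fold among genes at 1 CPM or more in the lower and 20 CPM or more in the higher line (symbols of uncharacterised, antisense and small RNAs left out). Others come from 31 gene lists, of which some members and 1 list are not reported here. The comparison, lists and rules were chosen with earlier results of these data known. Alternatives were other scalings, no filter, DESeq2 1.42.0, left-out libraries, a replicate block, a wider fit, a length correction and, chosen after seeing the data, only genes on 1 contig. A check of GC content was void because promoters matched only 77.5% of tested genes. Same-numbered libraries of the lines did not deviate together (r = 0.0062 over 14174 genes), so the numbers pair nothing.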

Additional observations from a re-analysis of the deposited data

Results flagged for a closer look

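For 12 of the 28 genes named by rule, the difference between the lines was itself different in the control and the DOT1L-depleted libraries, by at least 1 on the log2 scale and past an adjusted p of 0.05 in edgeR's interaction test. Of all 15367 genes in that test, 1950 met the same limits (12.7%). The 28 genes were chosen by their values in the control libraries, which enter this difference, and a choice of extreme values favours a smaller difference elsewhere, so the count and the values are a description and nothing is read from them. Towards HEL, the control difference exceeded the depleted one by 4.2 (IL1B), 4.06 (INPP5D), 3.79 (TESPA1), 2.52 (ETS1), 2.43 (ITGA2B), 2.298 (ITGB3) and 2.29 (CA1). In INPP5D the levels were 549 and 547 CPM in HEL control and 341 and 345 in HEL knockdown, against 1.30 and 1.41 in K562 control and 14.2, 15.0 and 13.1 in K562 knockout. TESPA1 was at 216 and 227 CPM in HEL control and 212 and 222 in the knockdown. In K562 it was at 1.21 and 1.09 in the control and 14.8, 15.3 and 16.8 in the knockout, so the wide gap was in K562. Control and depleted libraries were scaled in separate fits, so small gaps between their CPM, as in HEL here, are not read. ITGA2B had 25.1, 24.3 and 24.4 CPM in K562 knockout beside 3.72 and 5.64 in its control. SPINT2 went the other way, by -1.61.

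Among genes higher in K562, the control difference exceeded the depleted one in size by -3.36 (GDF15), -1.45 (CTTN), -1.40 (HBZ) and -1.40 (SDF2L1). HBZ had 941 and 1038 CPM in K562 control and 2678, 2805 and 2818 in the knockout, with 4.71 and 3.55 in HEL control and 30.9 and 30.4 in the knockdown. The values for IL1B, ETS1 and GDF15 rest on under 7 counts in the low line's control libraries in all. Knockdown and knockout differ in method and go with the line.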

How the results depend on the processing

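The number of genes that differed between the control libraries stayed between 11856 and 13084 under every alternative scaling, filter, tool, wider fit and length correction, beside 12656 as reported, and between 12126 and 12494 when 1 library was left out. With a 2-fold minimum as well it was 8180. In the depleted libraries it was 13194, 8431 with the 2-fold minimum, 12676 with DESeq2 and 12454 to 12926 with 1 library left out. The split moved towards K562 with library totals alone, to 5908 against 6744. On genes listed on 1 contig only, an alternative chosen after seeing the data, it was 6108 against 6232. With the replicate number as a block 12663 genes passed, 6205 and 6458, and of the genes followed one by one only UROD, which then passed, changed its call. Windows with a median of at least 1 in size numbered 49 to 56. The length correlation ran from 0.0611 without the first K562 library to 0.0858 and 0.0875 without a HEL library. Of 171 genes followed one by one, 164 kept their direction and their side of the threshold throughout. The direction turned for 3 when the length trend was removed: HBG1 (0.13), ANK1 (-0.045) and RHAG (0.17); the cause was not tested. The other calls that were lost belong to HBG1 and ANK1, both with a log2 fold under 0.2. The median of all genes was -0.05 with TMM, -0.04 with RLE, -0.10 with upper quartiles and -0.13 with library totals. Leaving out a library leaves 1 in that line, which is then assumed to vary like the other line.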
